A study of Homo sapiens with 6 samples.

Results

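The lipid uptake receptors SCARB1, VLDLR, CD36, LRP1 and LRP8 and the fatty-acid binding proteins FABP3, FABP4, FABP5 and FABP7 were followed in RCC10 cells, an established human line of clear cell renal carcinoma that lacks functional VHL. These 9 genes were taken by symbol from the 19009 genes of the count table. Each was found once, and each had at least 1 count in some library. Poly(A) RNA was sequenced from 3 groups of 2 libraries. HIF double-knockout cells had been given guide RNAs against HIF-1alpha (HIF1A) and HIF-2alpha (EPAS1) by lentivirus, followed by puromycin. VHL-restored cells had received VHL by lentivirus. Parental cells were labelled as wild type and control, and whether they had received any virus is not stated. Every group shared the VHL-deficient tumour background of RCC10 and growth in DMEM with 10% fetal bovine serum. A group given a non-targeting guide or an empty virus was not analysed here, so the effect of transduction cannot be told apart from that of the targeted genes. The labels do not say if the engineered lines were single clones or mixed populations, nor if replicate libraries came from different dishes. P-values therefore rest on a spread between libraries that may be no more than technical.

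Clear cell renal carcinoma takes its name from cytoplasm filled with neutral lipid, much of it cholesteryl ester and triglyceride. VHL marks the HIF alpha subunits for degradation in oxygen, so cells without it keep HIF active. Lipid enters cells in lipoproteins taken up by receptors of the LDL receptor family, by selective transfer of cholesteryl ester from HDL through SCARB1, or as free fatty acid with help from CD36. Inside the cell, the fatty-acid binding proteins carry fatty acids through the cytosol. VLDLR is known from other work as a hypoxia-responsive gene in this tumour.

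Total counts were 29929116 and 26085121 in double-knockout, 27890958 and 27776717 in VHL-restored, and 29454611 and 22248126 in parental libraries. HIF1A averaged 30.6 ± 1.42 CPM in double-knockout, 295.2 ± 12.6 in VHL-restored and 71.2 ± 2.42 in parental cells (CPM, a count relative to the scaled size of its library, SD, n = 2 each). EPAS1 averaged 46.2 ± 2.54, 366.1 ± 4.78 and 350.5 ± 2.21 CPM in the same order of groups, and VHL averaged 45.3 ± 2.87, 687.1 ± 50.3 and 39.1 ± 0.461 CPM. Both targeted genes were lower in double-knockout than in parental cells, and VHL was 17.6-fold higher in VHL-restored than in parental cells. Transcript of a gene cut by a guide can persist, so these levels do not measure protein. Of 10 markers of renal carcinoma epithelium, 9 were detected above 3 counts, with PAX8, KRT8 and VIM at 296.7 CPM or more in each library. CA9, a defining hypoxia marker of this tumour, had 0 counts in the double-knockout and VHL-restored libraries and 0 and 1 in the parental ones. KRT19 averaged 0.236, 0.679 and 0.272 CPM and PAX2 15.4, 1.11 and 1.67 CPM in double-knockout, VHL-restored and parental cells. Summed markers reached 6920.8 to 6935.0 CPM in double-knockout, 5887.5 to 6247.2 in VHL-restored and 8551.1 to 8586.6 in parental libraries. VIM was the largest part of each sum, averaging 4716.6, 3113.1 and 7021.3 CPM in the same order. Singly, 6 markers were higher and 2 lower after double knockout, and 5 higher and 3 lower after VHL restoration, against parental cells. Over all genes tested, 54.1% passed an adjusted p of 0.05 after double knockout, 26.6% higher and 27.5% lower. After VHL restoration 54.2% passed, 26.5% higher and 27.7% lower, so the number of markers that passed is not a result about cell type.

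The receptors SCARB1, VLDLR and LRP1 were lower in both engineered lines. LRP8 was the exception: it was higher than in parental cells after double knockout and lower after VHL restoration. FABP7 had 0 counts in the 4 engineered libraries and was detected in both parental ones. CD36, FABP3, FABP4 and FABP5 were at or near the limit of detection throughout. In bulk RNA, fewer cells that express a gene and less RNA per cell cannot be told apart.

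**Figure D1:**
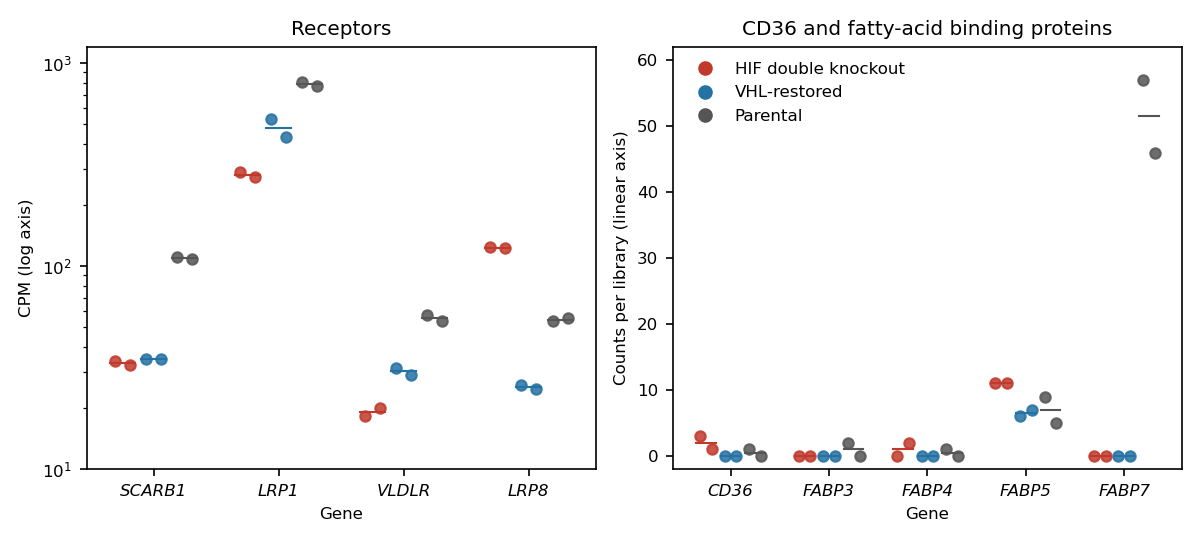
Levels of the 9 genes in each library: CPM on a log axis for the receptors (left), and counts per library on a linear axis for CD36 and the fatty-acid binding proteins (right). Points are libraries, coloured by group. LRP8 stands highest in double-knockout cells at 123.8 and 123.1 CPM, and FABP7 has counts in the parental libraries, 57 and 46.

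SCARB1 encodes SR-BI, the receptor that takes cholesteryl ester out of HDL without engulfing the particle. Its level was 33.9 and 32.4 CPM in double-knockout, 34.7 and 34.8 in VHL-restored, and 110.9 and 107.8 in parental libraries. The 4 engineered libraries lay within a narrow band, and both parental libraries stood far above it. SCARB1 was 3.30-fold lower in double-knockout than in parental cells (log2 fold change -1.72 ± 0.07 SE, adjusted p = 1.6e-19, edgeR quasi-likelihood test with Benjamini-Hochberg adjustment over 18273 genes). It was 3.15-fold lower in VHL-restored than in parental cells (-1.66 ± 0.07, adjusted p = 4.1e-19). Double-knockout and VHL-restored cells differed by -0.07 on the log2 scale, with a 95% interval from -0.22 to 0.09 (adjusted p = 0.49), which did not pass the test. That interval bounds the difference and does not show that the levels are equal.

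LRP1 is a large endocytic receptor that clears apolipoprotein E remnants, protease complexes and matrix proteins. It was measured at 290.7 and 274.0 CPM in double-knockout, 528.5 and 433.6 in VHL-restored, and 806.9 and 771.3 in parental libraries. The groups did not overlap and formed 3 steps, although the VHL-restored libraries spread more widely (481.0 ± 67.1 CPM, SD, n = 2) than the others. LRP1 was 2.79-fold lower after double knockout than in parental cells (-1.48 ± 0.07, adjusted p = 2.2e-18). After VHL restoration it was 1.64-fold lower than in parental cells (-0.71 ± 0.07, adjusted p = 7.6e-11). The double-knockout level was 1.70-fold below the VHL-restored one (-0.77 ± 0.07, adjusted p = 1.7e-11). In GENCODE v29 LRP1 overlaps STAT6 and LRP1-AS on the opposite strand. The sources used here do not say whether counting used strand, so reads from the shared part cannot be assigned to one gene. STAT6 had 6141 and 4926 counts in double-knockout, 9283 and 9220 in VHL-restored, and 7735 and 5657 in parental libraries, against 23944 and 17489 counts of LRP1 in parental cells.

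VLDLR, the very low density lipoprotein receptor, binds triglyceride-rich particles and also the secreted protein reelin. Its level was 18.2 and 20 CPM in double-knockout, 31.6 and 29.1 in VHL-restored, and 57.5 and 53.7 in parental libraries. Again the groups did not overlap, with double-knockout cells lowest. VLDLR was 2.92-fold lower in double-knockout than in parental cells (-1.55 ± 0.08, adjusted p = 1.1e-16). In VHL-restored cells it was 1.84-fold lower than in parental cells (-0.88 ± 0.08, adjusted p = 3.0e-11). Double-knockout cells were 1.59-fold below VHL-restored cells (-0.67 ± 0.09, adjusted p = 4.5e-08). An antisense gene, VLDLR-AS1, overlaps VLDLR in GENCODE v29.

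LRP8, also called ApoER2, is the other reelin receptor of this family and binds apolipoprotein E. It was found at 123.8 and 123.1 CPM in double-knockout, 26.0 and 24.9 in VHL-restored, and 53.4 and 55.2 in parental libraries. Replicates differed by less than 2 CPM, and the order of the groups was double knockout, parental, VHL-restored. LRP8 was 2.27-fold higher in double-knockout than in parental cells (1.19 ± 0.07, adjusted p = 5.4e-16). In VHL-restored cells it was 2.13-fold lower than in parental cells (-1.09 ± 0.07, adjusted p = 5.3e-14). The direct comparison of the engineered lines gave a 4.85-fold higher level in double-knockout cells (2.28, 95% interval 2.13 to 2.42, adjusted p = 2.3e-22). Of the 9 genes, LRP8 was the only one that passed the test in opposite directions in the engineered lines. How many of all genes did so was not counted. Over all genes tested, 54.1% passed after double knockout and 54.2% after VHL restoration, each against parental cells. Those comparisons share the parental libraries. GENCODE v29 has 5 genes that overlap LRP8, of which 4 lie on the opposite strand.

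Divided by the annotated exon length (CPM per kilobase of all exons of a gene in GENCODE v29), LRP1 was the most abundant of the receptors in each group, with 13.5 in double-knockout, 23.1 in VHL-restored and 37.9 in parental cells. SCARB1 had 4.28 in double-knockout, 4.49 in VHL-restored and 14.1 in parental cells, where it came next after LRP1. LRP8 reached 12 in double-knockout cells, close below LRP1, against 2.48 in VHL-restored and 5.29 in parental cells. VLDLR had 2.04 in double-knockout, 3.25 in VHL-restored and 5.96 in parental cells, the last beside an LRP8 value little below it. These values rest on the union of annotated exons rather than on the transcripts used by the cells, so the order of close neighbours is uncertain.

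**Figure D2:**
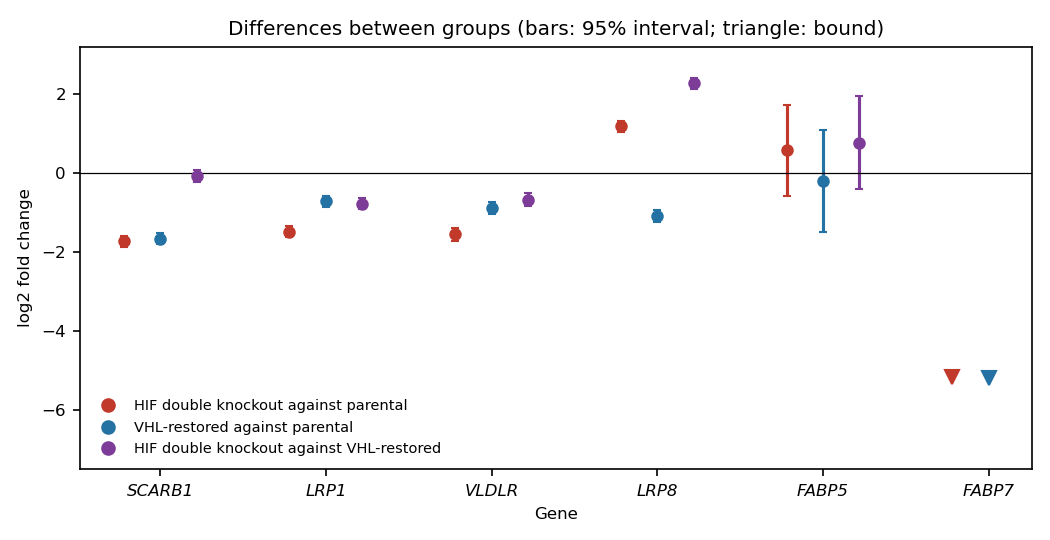
Log2 fold changes of SCARB1, LRP1, VLDLR, LRP8, FABP5 and FABP7, with 95% intervals as bars; CD36, FABP3 and FABP4 are not drawn. Triangles mark FABP7, whose fold is a bound because the engineered lines had no count. LRP8 lies above 0 for double knockout and below 0 for VHL restoration, each against parental cells, and the interval of SCARB1 between the engineered lines, -0.22 to 0.09, spans 0.

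FABP7, the brain-type fatty-acid binding protein, is best known from radial glia and is also found in renal carcinoma. It had 0 counts in each double-knockout and each VHL-restored library, against 57 and 46 counts, or 1.92 and 2.03 CPM, in the parental libraries. A count of 0 allows up to 3 counts, which is 0.103 and 0.117 CPM in the double-knockout and 0.107 CPM in each VHL-restored library. Against 3 counts over a group, FABP7 was at least 36.1-fold lower in double-knockout than in parental cells (adjusted p = 9.8e-11) and at least 36.7-fold lower in VHL-restored than in parental cells (adjusted p = 9.9e-11). No fold is given between the engineered lines, both at 0. Of the glial markers reported here, 1 was in the table: GFAP had 0 and 0 counts in double-knockout, 0 and 0 in VHL-restored, and 0 and 2 in parental libraries, and its part in the FABP7 counts was not tested. Floors and intervals from counts cover counting error only.

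FABP5, the epidermal fatty-acid binding protein, had 11 and 11 counts in double-knockout, 6 and 7 in VHL-restored, and 9 and 5 in parental libraries. The double-knockout values were the highest, without passing the test: the log2 difference from parental cells was 0.58, with a 95% interval from -0.58 to 1.73 (adjusted p = 0.418). Between VHL-restored and parental cells it was -0.20, with an interval from -1.49 to 1.09 (adjusted p = 0.823). Between double-knockout and VHL-restored cells it was 0.77, with an interval from -0.41 to 1.95 (adjusted p = 0.261). Differences inside these intervals were not detectable at this depth. GENCODE v29 lists 13 processed pseudogenes named after FABP5, and how reads shared with them were counted is not given, so its counts are uncertain.

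CD36, the fatty acid translocase of muscle, fat and macrophages, had 3 and 1 counts in double-knockout, 0 and 0 in VHL-restored, and 1 and 0 in parental libraries. The ratio of double-knockout to parental cells was 3.81, with a 95% counting interval from 0.377 to 188 (adjusted p = 0.457), and the VHL-restored comparison with parental cells gave an adjusted p of 0.504. Between double-knockout and VHL-restored cells the adjusted p was 0.151 in edgeR and 0.0186 in limma-voom, on 4 counts in all. FABP4, the adipocyte form, had 0 and 2 counts in double-knockout, 0 and 0 in VHL-restored, and 1 and 0 in parental libraries (adjusted p = 0.788 for double knockout and 0.517 for VHL restoration, each against parental cells). FABP3, the heart form, had 0 counts in the double-knockout and VHL-restored libraries and 2 and 0 in the parental ones (adjusted p = 0.352 and 0.348 in the same order). These 3 genes were too rare to compare. The 3 adipocyte markers in the table summed to 0.41 to 0.427 CPM in double-knockout, 0.607 to 0.751 in VHL-restored and 1.28 to 1.52 in parental libraries. ADRB3 had 5 and 6, 3 and 2, and 37 and 26 counts in the same order. It was lower in both engineered lines than in parental cells (adjusted p = 7.9e-06 and 3.2e-07, edgeR). PLIN1 was 2.78-fold higher in VHL-restored than in parental cells (adjusted p = 0.0214 in edgeR and 0.143 in DESeq2). Its double-knockout difference from parental cells did not pass. The 5 macrophage markers summed to 0.583 to 0.889, 1.32 to 1.36 and 0.539 to 0.573 CPM in double-knockout, VHL-restored and parental libraries, with PTPRC at 0. Among them CSF1R had 12 and 7, 30 and 28, and 10 and 6 counts in the same order. It was 3.36-fold higher in VHL-restored than in parental cells (adjusted p = 0.000419, edgeR), where the other 3 tested did not pass. The 6 endothelial markers summed to 2.29 to 2.72, 3.51 to 3.79 and 1.98 to 2.29 CPM, with PECAM1 and KDR at 0. Among them TEK had 6 and 6, 47 and 51, and 12 and 10 counts in the same order. It was 4.13-fold higher in VHL-restored than in parental cells (adjusted p = 1.7e-06, edgeR), where the other 3 tested did not pass. The part of these markers in the levels above was not tested.

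Of the 9 genes, 5 passed in double-knockout against parental cells, 1 higher and 4 lower. Over all genes tested 54.1% passed in that comparison, with 26.6% higher and 27.5% lower. Of the 9 genes, 5 were lower and 0 higher in VHL-restored than in parental cells, where 54.2% of all genes passed, 26.5% higher and 27.7% lower. Between double-knockout and VHL-restored cells 3 of the 9 passed, 1 higher and 2 lower, against 56.0% of all genes, 28.0% higher and 28.0% lower. With most genes tested differing between any pair of groups, the number of these 9 that passed is not a result about lipid uptake. The sizes can be read against all genes with a mean of at least 1 CPM, whose median absolute log2 fold change was 0.42 after double knockout and 0.40 after VHL restoration, each relative to parental cells. SCARB1, LRP1, VLDLR and LRP8 exceeded these medians in both comparisons. Between the engineered lines the median was 0.44, which LRP1, VLDLR and LRP8 exceeded and SCARB1 (-0.07) did not. As many genes lie above a median as below it, and the 9 genes were chosen with earlier results of these data known.

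The bases before the transcript start of VLDLR, LRP8 and FABP7 are shown because VLDLR and LRP8, which share the ligand reelin, differed in direction after double knockout, and FABP7 had no count in either engineered line. Each window is 250 bases up to the start, read 5′ to 3′ on the gene's strand, from RefSeq on GRCh38.p14. Capitals mark ACGTG or GCGTG on either strand, the core letters that HIF complexes are known to bind, so GCGTG on the opposite strand reads CACGC here. The VLDLR window is chr9:2621537-2621786 on the plus strand, that of LRP8 is chr1:53328071-53328320 on the minus strand, and that of FABP7 is chr6:122779466-122779715 on the plus strand.
VLDLR: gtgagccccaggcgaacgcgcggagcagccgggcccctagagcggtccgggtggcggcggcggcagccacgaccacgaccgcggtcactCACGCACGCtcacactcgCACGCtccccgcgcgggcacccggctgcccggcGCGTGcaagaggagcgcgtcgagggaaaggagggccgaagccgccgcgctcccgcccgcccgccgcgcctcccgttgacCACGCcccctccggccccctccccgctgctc
LRP8: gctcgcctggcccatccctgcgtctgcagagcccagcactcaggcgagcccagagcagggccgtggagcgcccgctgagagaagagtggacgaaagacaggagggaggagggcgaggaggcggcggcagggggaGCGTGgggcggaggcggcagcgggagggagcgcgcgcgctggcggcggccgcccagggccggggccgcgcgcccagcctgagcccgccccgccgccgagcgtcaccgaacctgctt
FABP7: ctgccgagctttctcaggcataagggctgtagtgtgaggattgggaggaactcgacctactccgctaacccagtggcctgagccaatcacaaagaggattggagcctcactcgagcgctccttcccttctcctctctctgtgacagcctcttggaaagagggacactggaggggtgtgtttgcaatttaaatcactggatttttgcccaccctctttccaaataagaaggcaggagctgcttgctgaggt
The VLDLR window held 5 matches, all of GCGTG, of which 4 lay on the opposite strand and 1 pair overlapped. The first bases of the matches were at -161, -157, -143, -110 and -31 from the start. At least 5 matches were present in 1.36% of 35116 such windows, and at least 1 in 43.2%. Those windows were not matched to VLDLR for base content, so the share does not measure an excess over it. LRP8 had 1 match, at -116, and the windows of FABP7 and LRP1 had 0. Of the 9 genes, 6 were matched to the promoter table, all but SCARB1, FABP4 and FABP5. Matches in the windows of CD36 and FABP3 are not given. A match describes the letters in these windows and does not show binding or a cause of the levels above.

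**Figure D3:**
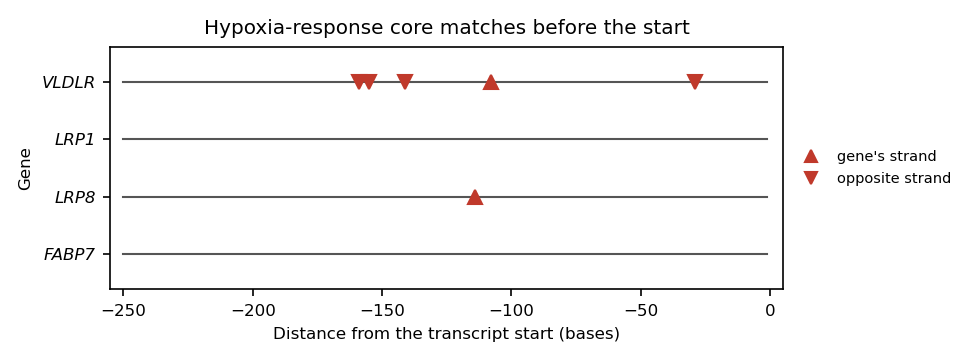
Positions of ACGTG or GCGTG matches in the 250 bases before the transcript start of VLDLR, LRP8, LRP1 and FABP7, with distance from the start in bases on the x axis and 1 gene per line. VLDLR carries 5 matches, LRP8 carries 1 at -116, and LRP1 and FABP7 carry 0.

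By pattern over the 6 libraries, the genes most like each receptor were found from log2(CPM + 0.5), centred on each gene's mean, as the root mean square difference over 12686 other genes with a mean of at least 1 CPM. For SCARB1 these were DMGDH (0.0575), a mitochondrial enzyme of choline breakdown, and HCG4 (0.0592). For LRP1 they were HAVCR1 (0.0479), the kidney injury molecule KIM-1, and CAT (0.0677), which encodes catalase. VLDLR was nearest to PPP1R3B (0.0502), a glycogen-targeting subunit of protein phosphatase 1, and CLIP2 (0.0646). LRP8 was nearest to DNMT3L (0.0745) and FAM174B (0.0753). HAVCR1 was at 41.2 and 41.0 CPM in double-knockout, 73.5 and 66.5 in VHL-restored, and 119.5 and 114.8 in parental libraries, the same 3 steps as LRP1. DNMT3L was at 10.3 and 9.75 CPM in double-knockout, 1.79 and 1.54 in VHL-restored, and 4.25 and 4.76 in parental libraries, in the order seen for LRP8. These genes were picked for their likeness, which is therefore a description.

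The rest of the LDL receptor family was mixed. Of 10 reported here, 3 rose, 4 fell and 3 did not pass in double-knockout against parental cells (median log2 fold change -0.11). Medians here and in the lists below leave out genes with 3 counts or fewer in both groups and take in bounds and counting ratios of genes near the floor. They are given over fitted genes too where that turns the sign, and the median over all genes tested was 0.0 in each comparison. In VHL-restored against parental cells 2 rose, 5 fell and 3 did not pass (median -0.31). Between double-knockout and VHL-restored cells 4 were higher, 4 were lower and 2 did not pass (median 0.08). Over all genes tested, 54.1%, 54.2% and 56.0% passed in these comparisons, in the same order. The counts in this and the following lists are to be read beside those shares. LRP6, a co-receptor of Wnt signalling, averaged 81.9 ± 3.39 CPM in double-knockout, 112.7 ± 8.52 in VHL-restored and 74.3 ± 1.41 in parental cells. It was 1.52-fold higher after VHL restoration (adjusted p = 4.9e-09), and its double-knockout difference from parental cells did not pass (0.14, adjusted p = 0.0868).

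LRP4, which organises the neuromuscular junction and binds agrin, averaged 7.58 ± 0.0402 CPM in double-knockout, 15.2 ± 0.617 in VHL-restored and 32.3 ± 2.77 in parental cells. Like VLDLR and LRP1 it stepped down in both engineered lines, being 4.28-fold lower after double knockout (adjusted p = 5.1e-18) and 2.13-fold lower after VHL restoration (adjusted p = 4.4e-12). LRP12 averaged 166.9 ± 2.12 CPM in double-knockout, 55.8 ± 6.71 in VHL-restored and 73.8 ± 2.42 in parental cells. It was 2.26-fold higher after double knockout (adjusted p = 1.9e-15) and 1.32-fold lower after VHL restoration (adjusted p = 2.0e-05), each against parental cells. SORL1, a sorting receptor between the trans-Golgi network and endosomes, was lower in both lines. It had 23 and 26 counts in double-knockout, 9 and 9 in VHL-restored, and 56 and 46 in parental libraries. Means were 0.898 ± 0.158, 0.322 ± 0.000223 and 1.96 ± 0.100 CPM in the same order, and the small VHL-restored SD comes from equal low counts. SORL1 was 2.18-fold lower after double knockout (-1.12 ± 0.27, adjusted p = 0.000399) and 5.99-fold lower after VHL restoration (-2.58 ± 0.37, adjusted p = 3.4e-08).

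Of the proteins that serve these receptors, 8 are reported here. Of these 2 rose, 4 fell and 2 did not pass in double-knockout against parental cells (median -0.13), and 3 rose and 5 fell in VHL-restored against parental cells (median -0.50). Between double-knockout and VHL-restored cells 5 were higher and 3 were lower (median 0.26). Beside these counts, 54.1%, 54.2% and 56.0% of all genes passed in the same order of comparisons. PDZK1, a scaffold that holds SCARB1 at the surface of mouse hepatocytes, was at 2.87 and 2.41 CPM in double-knockout, 45.9 and 49.1 in VHL-restored, and 86.4 and 80.9 in parental libraries. It was 31.5-fold lower in double-knockout (adjusted p = 8.6e-27) and 1.76-fold lower in VHL-restored cells (adjusted p = 3.2e-11), each against parental cells. Unlike SCARB1 it separated the engineered lines, being 17.9-fold lower in double-knockout than in VHL-restored cells (adjusted p = 4.1e-24).

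MYLIP, the ubiquitin ligase also called IDOL that marks VLDLR and LRP8 for degradation, was at 3.21 and 3.92 CPM in double-knockout, 15.7 and 16.0 in VHL-restored, and 6.5 and 6.84 in parental libraries. It was 1.87-fold lower after double knockout (adjusted p = 1.5e-06) and 2.38-fold higher after VHL restoration (adjusted p = 2.6e-11), each against parental cells. The order of the groups was the reverse of that of LRP8. It was not the reverse of that of VLDLR, which, like MYLIP, was lowest in double-knockout cells. These are RNA levels, and receptor protein was not measured. DAB2, a clathrin adaptor for the family, averaged 18.4 ± 0.680 CPM in double-knockout, 12.7 ± 0.540 in VHL-restored and 55.3 ± 0.435 in parental cells. It was 3.01-fold lower after double knockout (adjusted p = 2.4e-17) and 4.35-fold lower after VHL restoration (adjusted p = 5.2e-20) than in parental cells.

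RELN encodes reelin, the ligand of VLDLR and LRP8. It was at 251.3 and 246.0 CPM in double-knockout, 119.2 and 100.1 in VHL-restored, and 191.9 and 181.4 in parental libraries. RELN followed the order of LRP8 and not that of VLDLR. It was 1.33-fold higher after double knockout (adjusted p = 2.8e-06) and 1.70-fold lower after VHL restoration (adjusted p = 2.8e-11), each against parental cells. The double-knockout level was 2.27-fold above the VHL-restored one (adjusted p = 9.2e-16).

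**Figure D4:**
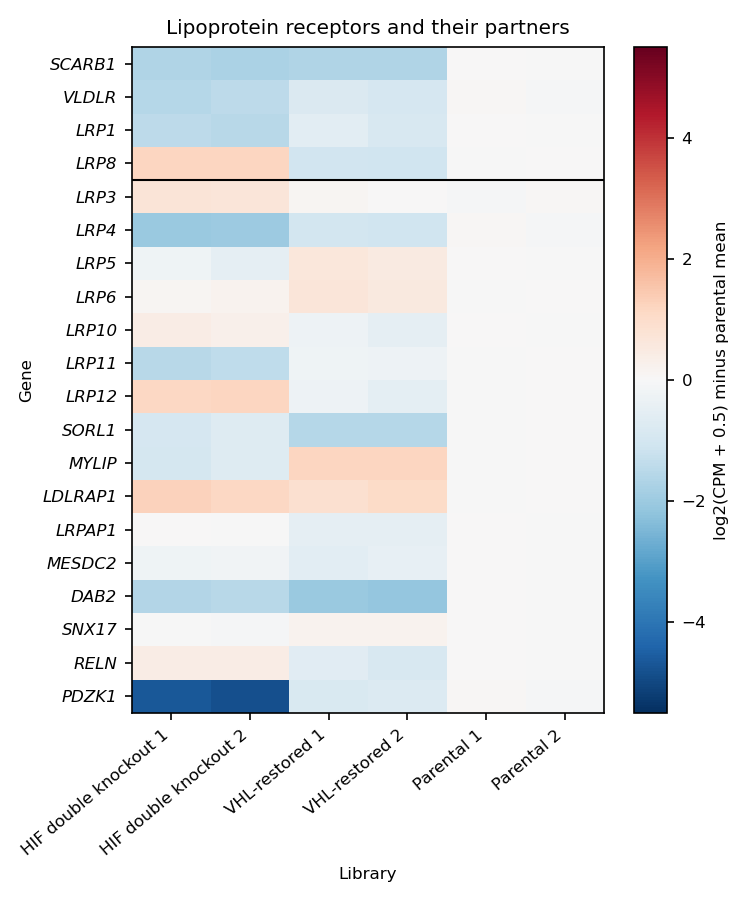
Levels of the 4 measured receptors (above the line) and of other family members, adaptors and regulators with a mean of at least 1 CPM, as log2(CPM + 0.5) minus the parental mean, in each of the 6 libraries. Red is above and blue below the parental mean. PDZK1 is dark blue in both double-knockout libraries. MYLIP is blue in double-knockout and red in VHL-restored libraries, where LRP8 shows the reverse.

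Scavenger receptors other than SCARB1 and CD36 were mostly rare. Of 11 tested, 1 rose, 3 fell and 7 did not pass in double-knockout against parental cells (median -0.82), and 0 rose, 4 fell and 7 did not pass in VHL-restored against parental cells (median -1.30). In double-knockout against VHL-restored cells 2 were higher, 0 were lower and 9 did not pass (median 0.44). Beside these counts, 54.1%, 54.2% and 56.0% of all genes passed in the same order of comparisons. Without parental replicate 2 or without double-knockout replicate 1, 2 rather than 4 passed in double-knockout against parental cells. SCARB2, the lysosomal relative of SCARB1, averaged 115.8 ± 9.38 CPM in double-knockout, 79.7 ± 2.66 in VHL-restored and 196.9 ± 5.31 in parental cells. It was 1.70-fold lower after double knockout (adjusted p = 7.2e-12) and 2.47-fold lower after VHL restoration (adjusted p = 3.6e-17). MSR1, the class A macrophage scavenger receptor, had 5 and 4 counts in double-knockout, 4 and 4 in VHL-restored, and 30 and 42 in parental libraries (8.28-fold lower after double knockout, adjusted p = 1.2e-06, and 9.44-fold lower after VHL restoration, adjusted p = 6.9e-07).

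Among 14 lipases and lipoprotein components tested, 3 rose, 1 fell and 10 did not pass in double-knockout against parental cells (median 0.02), and 2 rose, 3 fell and 9 did not pass in VHL-restored against parental cells (median 0.12, or -0.30 over the 8 fitted genes). Between the engineered lines 4 were higher in double-knockout cells, 1 was lower and 9 did not pass (median 0.29), and without double-knockout replicate 1, with DESeq2 or with limma-voom 3 rather than 5 passed. Beside the list, 54.1%, 54.2% and 56.0% of all genes passed in the same order of comparisons. LIPG, endothelial lipase, was at 20.7 and 19.4 CPM in double-knockout, 8.91 and 9.51 in VHL-restored, and 5.66 and 6.35 in parental libraries. It was 3.36-fold higher after double knockout (adjusted p = 5.1e-15) and 1.54-fold higher after VHL restoration (adjusted p = 4.0e-05). ANGPTL4, a secreted inhibitor of lipoprotein lipase, was at 10.9 and 7.73 CPM in double-knockout, 1.82 and 1.00 in VHL-restored, and 9.0 and 9.57 in parental libraries. Double-knockout and parental libraries overlapped (log2 difference 0.02, adjusted p = 0.971), and VHL-restored libraries were 6.54-fold lower than parental ones (adjusted p = 2.0e-13). LMF1, the folding factor of lipases, averaged 10.7 ± 1.84 CPM in double-knockout, 8.76 ± 0.461 in VHL-restored and 21.0 ± 0.646 in parental cells, 1.96-fold lower after double knockout (adjusted p = 1.7e-09) and 2.4-fold lower after VHL restoration (adjusted p = 1.2e-11).

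Of 10 fatty acid transport proteins and acyl-CoA synthetases, 4 rose, 3 fell and 3 did not pass in double-knockout against parental cells (median -0.06), and the same counts were found in VHL-restored against parental cells (median 0.42). When the engineered lines were compared, 3 were higher in double-knockout cells, 4 were lower and 3 did not pass (median -0.37). Beside these counts, 54.1%, 54.2% and 56.0% of all genes passed in the same order of comparisons. Without parental replicate 1, without parental replicate 2 or without double-knockout replicate 2, 4 rather than 7 passed in double-knockout against parental cells. SLC27A1, fatty acid transport protein 1, was at 6.15 and 5.67 CPM in double-knockout, 16.7 and 14.6 in VHL-restored, and 25 and 23.8 in parental libraries (4.12-fold lower after double knockout, adjusted p = 7.4e-17, and 1.56-fold lower after VHL restoration, adjusted p = 5.1e-07). SLC27A3 was at 0.889 and 0.699 CPM in double-knockout, 2.22 and 2.39 in VHL-restored, and 6.94 and 6.04 in parental libraries. It was 8.13-fold lower after double knockout (adjusted p = 1.3e-14) and 2.83-fold lower after VHL restoration (adjusted p = 8.6e-10). SLC27A4 was higher in both lines, at 31.1 ± 3.09 CPM in double-knockout, 24.5 ± 0.194 in VHL-restored and 15.5 ± 0.332 in parental cells (2.02-fold higher after double knockout, adjusted p = 2.2e-11, and 1.58-fold higher after VHL restoration, adjusted p = 2.1e-07).

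Of 8 other intracellular lipid-binding proteins tested, 0 rose, 2 fell and 6 did not pass in double-knockout against parental cells (median -0.05), and 1 rose, 3 fell and 4 did not pass in VHL-restored against parental cells (median 0.33, or -0.29 over the 4 fitted genes). Between the engineered lines 2 were higher in double-knockout cells, 1 was lower and 5 did not pass (median -0.30, or 0.25 over the 4 fitted genes). Those medians turn on RBP5 and RBP7, retinol-binding proteins named here for that reason, which had ratios of 2.81 and 3.74 in VHL-restored to parental cells, with counting intervals from 0.502 to 28.4 and from 0.37 to 184.3. Without any 1 of the double-knockout or parental replicates, 1 rather than 2 passed in double-knockout against parental cells, and without parental replicate 1, 2 rather than 4 passed in VHL-restored against parental cells. Beside the list, 54.1%, 54.2% and 56.0% of all genes passed in double knockout against parental, VHL-restored against parental, and double knockout against VHL-restored. FABP6, the ileal bile acid binding protein, had 7.28 and 6.49 CPM in double-knockout, 0.572 and 0.5 in VHL-restored, and 15.5 and 15.9 in parental libraries. It was 2.27-fold lower after double knockout (-1.18 ± 0.11, adjusted p = 5.2e-11) and 29-fold lower after VHL restoration (-4.86 ± 0.26, adjusted p = 5.2e-21). Unlike FABP7 it kept counts in each library, and it was 12.8-fold higher in double-knockout than in VHL-restored cells (adjusted p = 2.6e-16).

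Of 7 genes of sterol export and trafficking, 2 rose, 3 fell and 2 did not pass in double-knockout against parental cells (median -0.04), and 3 rose, 3 fell and 1 did not pass in VHL-restored against parental cells (median 0.13). Double-knockout cells had 1 higher and 5 lower than VHL-restored cells, and 1 did not pass (median -0.28). Beside these counts, 54.1%, 54.2% and 56.0% of all genes passed in the same order of comparisons. ABCA1, which loads cholesterol onto apolipoprotein A1, was at 33.4 and 37.1 CPM in double-knockout, 20.4 and 17.6 in VHL-restored, and 87.8 and 85.9 in parental libraries. It was 2.47-fold lower after double knockout (adjusted p = 1.7e-15) and 4.57-fold lower after VHL restoration (adjusted p = 1.7e-20), so this export gene fell in both lines, as SCARB1 did. NPC1 and NPC2, which together move cholesterol out of the lysosome, changed in opposite directions. NPC1 averaged 303.6 ± 2.18, 336.7 ± 15.8 and 502.3 ± 7.81 CPM in double-knockout, VHL-restored and parental cells (adjusted p = 9.8e-13 and 2.0e-10 against parental cells). NPC2 averaged 246.1 ± 0.208, 298.6 ± 25 and 186.2 ± 9.54 CPM in the same groups (adjusted p = 1.7e-06 and 5.8e-11).

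Of 7 lipid-sensing nuclear receptors and coactivators, 1 rose, 4 fell and 2 did not pass in double-knockout against parental cells (median -0.52), and 4 rose, 1 fell and 2 did not pass in VHL-restored against parental cells (median 0.38). Between the engineered lines 2 were higher in double-knockout cells and 5 were lower (median -0.48). Beside these counts, 54.1%, 54.2% and 56.0% of all genes passed in the same order of comparisons. PPARGC1A, the coactivator of mitochondrial and fatty acid oxidation genes, had 2 and 8 counts in double-knockout, 2 and 0 in VHL-restored, and 1362 and 1001 in parental libraries. It was 241.5-fold lower after double knockout (log2 fold change -7.92, 95% interval -8.91 to -6.92, adjusted p = 5.1e-25), with counts giving 145.3-fold without double-knockout replicate 1 and 660.1-fold without double-knockout replicate 2. In VHL-restored cells it was 1262.6-fold lower, with a 95% counting interval from 349.1 to 10431.4 (adjusted p = 3.1e-25), or 631.0-fold without VHL-restored replicate 2 and at least 421.1-fold without VHL-restored replicate 1. Like FABP7 it was nearly absent from both engineered lines and present in parental cells. Between the engineered lines PPARGC1A passed as higher in double-knockout cells (adjusted p = 0.0492, edgeR), although their libraries overlapped. It did not pass with DESeq2 (adjusted p = 0.0637) or with edgeR on the engineered lines alone (adjusted p = 0.178). PPARG, the lipid-sensing receptor of fat cells, averaged 3.91 ± 0.0179 CPM in double-knockout, 5.58 ± 0.00385 in VHL-restored and 6.85 ± 0.673 in parental cells. It was 1.74-fold lower after double knockout (adjusted p = 7.1e-06), and its VHL-restored difference from parental cells did not pass (-0.29, adjusted p = 0.0582).

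The 8 genes of caveolae passed in double-knockout against parental cells, 4 higher and 4 lower (median -0.16, or 0.13 over the 7 fitted genes), where 54.1% of all genes passed. With DESeq2 size factors, median centring, the DESeq2 test or limma-voom 7 passed, and 6 passed when either parental library or double-knockout replicate 1 was left out. In this list 2 rose, 3 fell and 3 did not pass in VHL-restored against parental cells (median -0.15), where 54.2% of all genes passed. Between the engineered lines 3 were higher and 5 were lower in double-knockout cells (median -0.31), beside 56.0% of all genes, and 6 passed without double-knockout replicate 1. CAV1, the coat protein of these membrane pits in which SCARB1 and CD36 can reside, was at 305.3 and 331.3 CPM in double-knockout, 621.6 and 649.1 in VHL-restored, and 1140.0 and 1125.1 in parental libraries. It was 3.56-fold lower after double knockout (adjusted p = 9.2e-23) and 1.78-fold lower after VHL restoration (adjusted p = 2.8e-14), the same order of groups as LRP1 and VLDLR. CAV2 followed, at 87.8 ± 3.33, 128.7 ± 3.70 and 219.3 ± 6.76 CPM in double-knockout, VHL-restored and parental cells (adjusted p = 5.1e-18 and 2.2e-12). SDPR, an older symbol of CAVIN2, had 0 and 0 counts in double-knockout, 2755 and 2827 in VHL-restored, and 52 and 20 in parental libraries. It was 72.5-fold higher in VHL-restored than in parental cells (adjusted p = 3.0e-26) and at least 25.2-fold lower in double-knockout than in parental cells (adjusted p = 1.9e-09). Leaving out parental replicate 1 gave a 113.1-fold higher level in VHL-restored cells, and leaving out each double-knockout or parental library moved the bound for double knockout between 11.8 and 32.1.

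**Figure D5:**
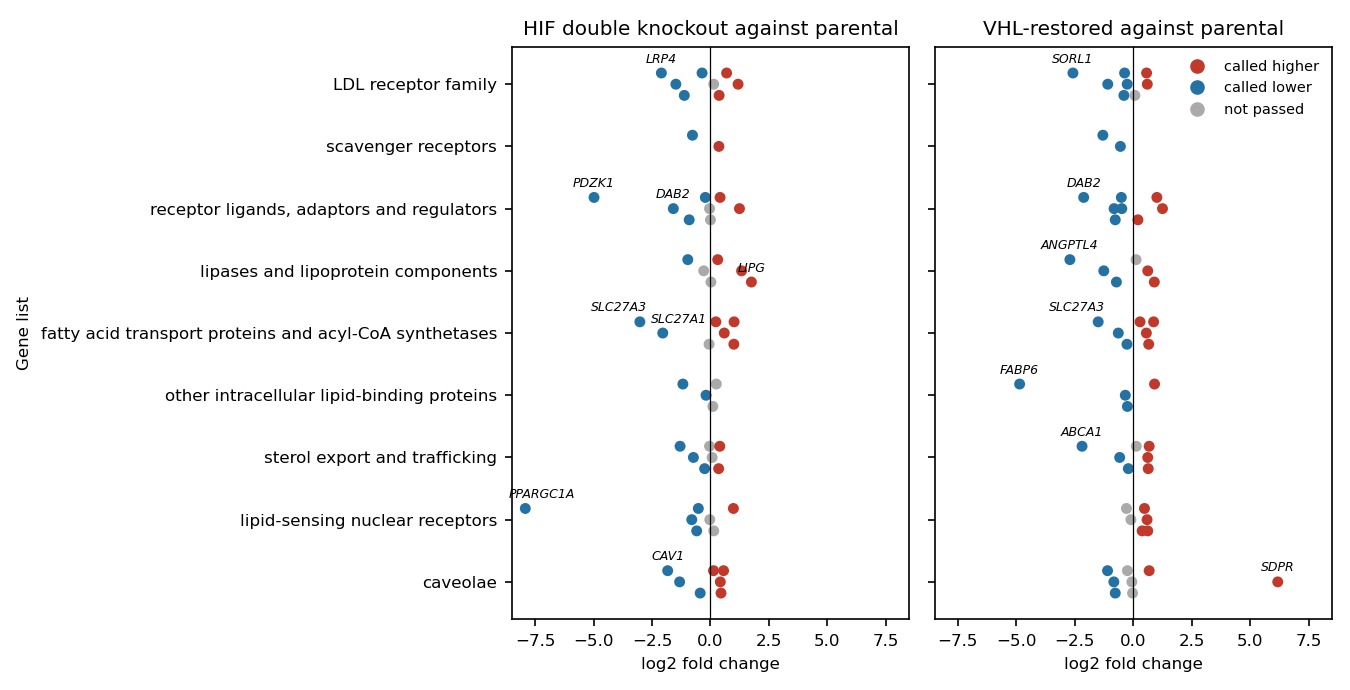
Fitted log2 fold changes of genes with a mean of at least 1 CPM in 9 lists around lipid uptake, for double knockout (left) and VHL restoration (right), each against parental cells. Red passed as higher, blue passed as lower and grey did not pass, and genes with a bound or a counting ratio are not drawn. SLC27A3 lies at -3.02 in the left panel, and FABP6 at -4.86 and SDPR at 6.18 in the right panel.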

How the data were processed

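Poly(A) RNA of 6 RCC10 libraries, 2 per group, was counted per gene. The authors deposited whole-number counts for 19009 genes. Although the table is called normalized, its column totals differ and its values are whole, and it was analysed as unnormalized counts. The submitters' processing notes name HISAT2 2.2.1 and featureCounts 2.0.8, besides FastQC 0.74, limma 3.58.1 and Trimmomatic 0.39, and both hg38 and hg19 as builds. They leave order, settings and strandedness unstated.

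Genes with at least 1 count (18273) were fitted over all 6 libraries with 1 mean per group (edgeR 4.0.16 on R 4.3.3, TMM scaling, two-sided quasi-likelihood test). P-values were adjusted by Benjamini-Hochberg over all genes tested in each of 3 comparisons, at a threshold of 0.05. CPM uses TMM-scaled library sizes, and the biological coefficient of variation was 4.41%. Values are mean ± SD of 2 libraries or log2 fold change ± SE. Replicate libraries were not copies of each other: their chi-square over its degrees of freedom was 2.58 to 6.61. The scripts were tested on simulated data. DESeq2 1.42.0, limma-voom and 11 other alternatives were tried.

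The 9 genes and the lists were chosen with earlier results of these data known. Of 136 listed genes, 115 were in the table. Some genes of the lists are not reported here and are left out of the lists' counts. Besides the 9 genes, HIF1A, EPAS1 and VHL, the text names genes from the up to 3 largest changes per list and comparison among those past the threshold whose libraries did not overlap, and the 2 genes most alike each receptor. PAX8, KRT8, VIM, CA9 and the absent markers PTPRC, PECAM1 and KDR are named as checks of cell type.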

Additional observations from a re-analysis of the deposited data

Results flagged for a closer look

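The genes below moved in opposite directions in the engineered lines relative to parental cells, and the difference between the lines was tested directly. How many of all genes did so was not counted. With 54.1% and 54.2% of all genes passing against parental cells, opposite directions alone do not set these genes apart. The comparisons with parental cells share the parental libraries. Each value is the log2 fold change of double-knockout over VHL-restored cells with its adjusted p from edgeR, and for SDPR a bound.

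LRP8 differed by 2.28 (adjusted p = 2.3e-22), higher in double-knockout and lower in VHL-restored than in parental cells. Among receptors and their partners that the naming rule takes, LRP12 differed by 1.58 (2.3e-18), SCARF2 by 0.92 (1.5e-08) and RELN by 1.18 (9.2e-16), which were higher in double-knockout and lower in VHL-restored than in parental cells. LRP5, LRP10, ACSL4 and LHX1 are outside that rule and were added after their values were seen. LRP5, a Wnt co-receptor, differed by -0.93 (1.6e-11), at -0.36 after double knockout and 0.57 after VHL restoration against parental cells, which is opposite to LRP8. LRP10 differed by 0.74 (1.0e-10), at 0.37 and -0.37 in the same order, the directions of LRP8. The acyl-CoA synthetase ACSL4 differed by 0.5 (7.7e-08), at 0.23 and -0.27. The renal marker LHX1 differed by 1.21 (5.4e-11), at 0.54 and -0.67. Both had the directions of LRP8. For SCARF2 the rise in double-knockout over parental cells did not pass without parental replicate 1, without parental replicate 2 or without double-knockout replicate 1 (adjusted p = 0.056 to 0.117). MYLIP differed by -2.16 (6.3e-16), lower in double-knockout and higher in VHL-restored than in parental cells. The lysosomal lipase LIPA differed by 1.03 (8.5e-15), and PRKCDBP, an older symbol of CAVIN3, by 1.52 (8.0e-16), both with the directions of LRP8. PPARD differed by -0.98 (1.4e-11) and HIF1A by -3.27 (1.2e-26), both with the directions of MYLIP. SDPR was at least 1829.1-fold lower in double-knockout than in VHL-restored cells (4.4e-27), a bound that moved between 856.3 and 1851.8 with 1 library of these groups left out.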

How the results depend on the processing

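The number of genes passing and the number of the 9 genes passing stayed within 1.5 times the reported value under all 13 alternatives. For double knockout against parental, VHL-restored against parental, and double knockout against VHL-restored, DESeq2 passed 8807, 8639 and 9053 genes, and limma-voom 10215, 10210 and 10605. Leaving out each library gave 7974 to 10134, 7891 to 9671, and 9019 to 9679. With 1 library left in a group, that library is assumed to vary like the other groups. SCARB1 ranged from -1.76 to -1.69 and LRP8 from 1.16 to 1.21 in double-knockout against parental cells, and LRP1 from -0.86 to -0.58 in VHL-restored against parental cells. Over 208 single-gene differences, 2602 alternative values kept direction and side of the threshold, 74 no longer passed, 13 newly passed and 11 changed sign.

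The changes of sign came from leaving out 1 library, none passed the test as reported, and the cause was not tested. In double-knockout against parental cells they were ANGPTL4 (-0.26 to 0.23 over the libraries left out, and -0.03 without parental replicate 1), NR1H3 (-0.03 to 0.15), RXRB (-0.10 to 0.05, and 0.0 without double-knockout replicate 2), KRT19 (-0.38 to 0.0), PLIN1 (-0.87 to 0.13) and CSF1R (-0.16 to 0.42). The others were FABP5 in VHL-restored against parental cells (-0.37 to 0.08), and DBI (-0.05 to 0.16) and DMGDH (-0.15 to 0.0) in double-knockout against VHL-restored cells.

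A replicate block passed 10112, 10147 and 10458 genes in the 3 comparisons, and 5, 5 and 3 of the 9 genes. With the block PPARG (adjusted p = 0.0444) and PAX2 (0.0326) passed as lower in VHL-restored than in parental cells. Deviations of same-numbered libraries had correlations of 0.175 (double knockout and parental), -0.00805 (VHL-restored and parental) and 0.0165 (double knockout and VHL-restored) over 12687 genes. The labels state no shared batch, and these correlations cannot settle whether there was one. Depth limits CD36, FABP3, FABP4 and FABP5: 3 counts correspond to 0.101 to 0.132 CPM in a library.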

Other observations

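Of the 10 renal carcinoma markers, 6 were higher, 2 were lower and 2 did not pass in double-knockout against parental cells, where 54.1% of all genes passed. In VHL-restored against parental cells 5 were higher, 3 were lower and 2 did not pass, beside 54.2% of all genes. PAX2 and CDH6 had the largest changes of the list after double knockout. PAX2, a transcription factor of kidney development, was at 15.9 and 14.8 CPM in double-knockout, 0.858 and 1.36 in VHL-restored, and 1.48 and 1.85 in parental libraries. It was 9.31-fold higher in double-knockout than in parental cells (adjusted p = 5.4e-18, edgeR), and its difference between VHL-restored and parental cells did not pass (adjusted p = 0.052; 0.0498 with DESeq2 size factors, 0.046 with edgeR's filter on low counts and 0.00718 without VHL-restored replicate 2). CDH6, a cadherin of the proximal tubule lineage, was at 9.88 and 12.5 CPM in double-knockout, 30 and 26.7 in VHL-restored, and 67.5 and 64.3 in parental libraries. It was 5.91-fold lower after double knockout (adjusted p = 9.0e-21) and 2.32-fold lower after VHL restoration (adjusted p = 8.1e-14), each against parental cells.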
